A study of Mus musculus with 33 samples.

Results

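Imprinted genes are expressed mainly from the maternal or mainly from the paternal chromosome. A list of 45 mouse genes of this kind, chosen by name and without a threshold on counts while earlier results of these data were known, was followed through RNA-seq libraries of mouse embryonic stem cells (mESCs) that carried mutations of the base excision repair genes Neil1, Neil2 or Apex1. Gene identifiers were found for 44 of the 45 genes, among 37991 identifiers in the count files. Kcnq1ot1 had no identifier and was not analysed here. The 44 genes lie in 21 imprinted clusters or as single genes, 24 of them known as paternally expressed, 18 as maternally expressed, and 2 as expressed from both chromosomes in most tissues.

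All clones were made with CRISPR/Cas9 in E14TG2a mESCs, a widely used line. Neil1 and Neil2 encode DNA glycosylases, which cut damaged or modified bases out of DNA, and Apex1 encodes the endonuclease that acts at the abasic sites left behind. Control clones had received the Cas9 plasmid without a guide, so that control and mutant clones all went through transfection, puromycin selection and the picking of a colony. In the mutants the guides removed the coding sequence around the active site. Controls were clones #1, #4 and #7, Neil1 mutants were clones #7, #9 and #11, Neil2 mutants were clones #1, #11 and #14, and the Apex1 mutant was a single clone, #46, sequenced as technical duplicates. Each clone was sequenced at 3 stages: as mESCs at day 0, as embryoid bodies (EBs, floating aggregates in which the cells differentiate) at day 8, and as EBs + RA at day 8, which received 5 µM retinoic acid (RA), a signal that drives neural differentiation, in the later part of the culture. EBs and EBs + RA of a clone came from the same culture, divided before RA was given. This makes 33 libraries. Values below are listed in the order of the clones just given.

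An imprinted cluster is governed by an imprinting control region, a stretch of CpG-rich DNA that is methylated on the chromosome from one parent only, a mark set in the egg or in the sperm and kept in the cells of the embryo. At most clusters the methylated copy comes from the mother. Those of H19-Igf2, Dlk1-Meg3 and Rasgrf1 carry the mark on the paternal copy. Methylation is kept by DNMT1 and by zinc finger proteins such as ZFP57, which recognises the methylated hexamer TGCCGC and recruits TRIM28. mESC lines are known to lose or gain such marks in culture. Many imprinted genes act on growth and differentiation of the embryo. The libraries pooled RNA from both chromosomes, and the parental chromosome behind each count was not measured.

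Counts on genes were 21523742 to 48350904 per library, with a median of 26720028. The members took 0.283% to 2.74% of them, with a median of 0.492%. Values are given as CPM, counts scaled to the size of the library by TMM. The deletions leave most of each targeted gene in place and the files hold 1 count per gene, so the counts do not show whether a targeted gene was cut. Neil1 stood at 9.83, 9.53 and 7.67 CPM in control mESCs and at 31.6, 2.51 and 7.28 CPM in Neil1 mESCs, so the clones of the mutant lay on both sides of the controls. Neil2 was at 15.1, 13.2 and 5.77 CPM in control mESCs and at 5.49, 9.54 and 6.47 CPM in Neil2 mESCs, within overlapping ranges. Apex1 was higher, not lower, in the libraries labelled Apex1, with 75.4 and 72 CPM in mESCs against 8.18, 7.69 and 17.9 CPM in the controls. The libraries were prepared with a kit that does not mark strand, and reads from genes that overlap on opposite strands cannot be told apart. This touches Mest and Copg2, which share 904 exon bases, and Gnas, which shares 988 with Nespas and 1469 with AF085738. Meg3 shares 1228 exon bases with Gm17639, H13 shares 760 with Gm17559, Tssc4 shares 220 with Trpm5, and Zrsr1 shares 203 with Commd1.

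The control clones did not express imprinted genes alike. They differed at 11 of the 44 members, and at each of these 11 control clone #1 lay beyond both control clones #4 and #7 at every stage. Mest and Nnat were lower in it, H19 was lower while its neighbour Igf2 was higher, and Grb10 was higher. Among all genes, 35 of 17524 differed between the control clones, or 0.2%, and the 11 members made up 31.4% of these 35. The test was edgeR's quasi-likelihood F-test of the clone terms with Benjamini-Hochberg adjustment, in a fit with a term for genotype and stage, at an adjusted p below 0.1. The test within the control clones was added after the values were seen. In this test, here and below, the stages of a clone stood in for its replicates. EBs and EBs + RA of a clone came from the same culture and are not independent. An effect of that culture can therefore count as one of the clone, and the adjusted p can be too small.

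Mest, a paternally expressed gene for a hydrolase-like enzyme of the mesoderm, was at 7.52, 91.8 and 132 CPM in control mESCs, at 93.2, 584 and 327 CPM in control EBs and at 101, 626 and 657 CPM in control EBs + RA. Clone #1 was the lowest at each stage, and the adjusted p of the clone effect was 5.10e-04. Nnat, which codes for neuronatin and is paternally expressed from an intron of Blcap, stood at 1.21, 14.5 and 7.75 CPM, then 6.12, 53.6 and 39.1 CPM and finally 39, 333 and 220.3 CPM (adjusted p = 6.51e-07). It rose along the stages in clone #1 as in the other clones, from a lower start. Plagl1, a paternally expressed zinc finger transcription factor, had 4.16, 26.1 and 41.6 CPM in mESCs, 6.72, 47.6 and 51.6 CPM in EBs and 97.6, 777 and 339.5 CPM in EBs + RA (adjusted p = 1.21e-04). For these genes the value of clone #1 lay below both other control clones at all 3 stages.

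At H19-Igf2 the pair moved in opposite directions. H19, a maternally expressed non-coding RNA, was at 45.8, 179 and 239.6 CPM in control mESCs, 551, 5903 and 3247 CPM in EBs and 850.5, 7254 and 9522 CPM in EBs + RA (adjusted p = 2.37e-04). Igf2, the paternally expressed insulin-like growth factor that shares enhancers with H19, was at 31.5, 6.08 and 16.5 CPM, 1864, 330.2 and 295 CPM and 3573, 488 and 1629 CPM (adjusted p = 5.21e-04). Clone #1 thus had the least H19 and the most Igf2 of the 3 control clones at every stage. In EBs and EBs + RA the largest gap on the log2 scale was that of Grb10, a growth inhibitor that is maternally expressed in most tissues and binds the insulin receptor. Its levels in clone #1 were 174, 338 and 753 CPM along the stages, whereas clones #4 and #7 fell from 37.7 and 38.9 CPM in mESCs to 6.14 and 10.8 CPM in EBs + RA (adjusted p = 0.0215). In clone #1 Grb10 therefore went up where it went down in the other control clones.

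The remaining 5 members of the 11 were Snrpn, Impact, Zrsr1, Nap1l5 and H13. Snrpn, a component of the splicing machinery expressed from the paternal copy, was at 136, 272 and 233 CPM in control mESCs (adjusted p = 0.00778). Impact, a paternally expressed regulator of translation, was at 91, 184 and 218 CPM (adjusted p = 0.0241). In both, clone #1 stood lowest. Zrsr1, a paternally expressed retrogene related to a splicing factor, was at 11, 22.8 and 28.1 CPM with clone #1 again lowest (adjusted p = 0.00858). Nap1l5, a paternally expressed retrogene at low level, was at 0.219, 1.95 and 1.7 CPM (adjusted p = 0.061). H13, which codes for a signal peptide peptidase, was the exception with the highest value in clone #1, 76.7, 47.3 and 36.1 CPM in EBs (adjusted p = 0.0241). Mcts2, a paternally expressed retrogene inside H13 that was on a second list of 27 imprinted genes and not a member, also differed between control clones, at 7.85, 39.1 and 40.3 CPM in mESCs (adjusted p = 6.51e-07).

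**Figure D1:**
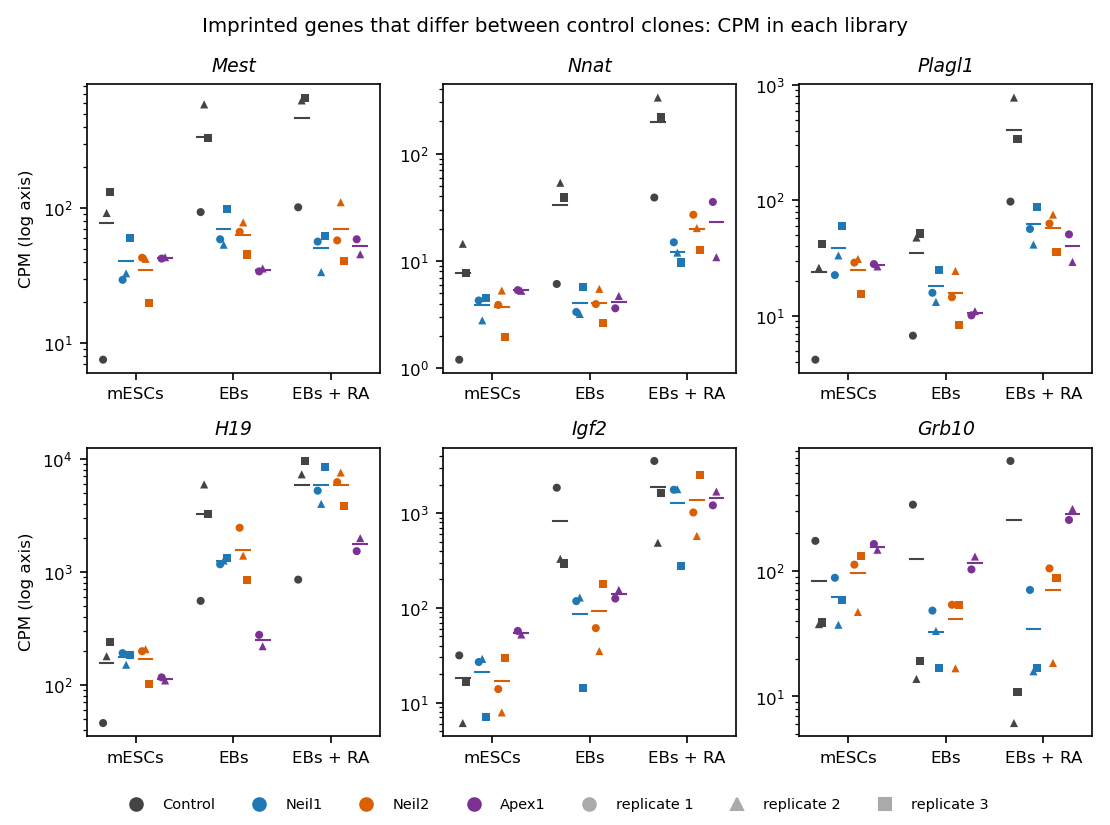
CPM of Mest, Nnat, Plagl1, H19, Igf2 and Grb10 on a logarithmic axis in each library, by stage and genotype. Each point is a clone or technical duplicate, with its shape giving the replicate number (replicates 1, 2 and 3 are control clones #1, #4 and #7), and each line is the mean of a group. Control clone #1 is the lowest control for Mest, Nnat, Plagl1 and H19 and the highest for Igf2 and Grb10 at all 3 stages, and its Grb10 value in EBs + RA is 753 CPM against 6.14 and 10.8 CPM in the other control clones.

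Over all 44 members, clone #1 was the lowest of the 3 control clones at all 3 stages for 14, where 2.19% of all genes showed this, and the highest at all 3 stages for 9, where 2.99% of all genes did. Of the 24 paternally expressed members, 10 were lowest in clone #1 throughout (Peg3, Usp29, Peg10, Mest, Snrpn, Nnat, Zrsr1, Plagl1, Impact and Nap1l5) and 1 was highest throughout (Igf2). Of the 18 maternally expressed members, 4 were lowest throughout (Meg3, Rian, Mirg and H19) and 7 were highest (Cdkn1c, Phlda2, Slc22a18, Igf2r, Asb4, H13 and Grb10). Igf2, H19, Meg3, Rian and Mirg, which lay on the other side than most genes of their parental origin, belong to H19-Igf2 and Dlk1-Meg3, whose control regions are methylated on the paternal copy.

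The members were then sorted, after these values had been seen, by which copy of the chromosome they are known to be read from. For 21 members it is the copy whose control region is unmethylated, and for 18 the copy whose control region is methylated. The other 5 were not sorted. Clone #1 was lowest at all 3 stages for 14 of the 21 read from the unmethylated copy and highest for 0 of them. For the 18 read from the methylated copy the numbers were 0 and 8. Members of a cluster, such as Meg3, Rian and Mirg, share a control region, so the counts here and above are not of independent cases. Since the sorting came after the values, it is not a separate check of them. On the log2(CPM + 0.5) scale, the median difference of clone #1 from the mean of clones #4 and #7 over the 21 members was -0.91 in mESCs, -0.70 in EBs and -0.77 in EBs + RA. Over the 18 members it was 0.34, 0.90 and 0.65, and over all genes tested it was 0.01, 0.03 and -0.01. For the rest of the unmethylated group (Airn, Sgce, Ndn, Magel2, Mkrn3, Peg12 and Inpp5f) clone #1 was neither the lowest nor the highest at all 3 stages. The same held for the rest of the methylated group, the larger part of it. These were Dlk1, Dio3, Osbpl5, Cd81, Tssc4, Zim1, Ppp1r9a, Copg2, Ube3a and Rasgrf1.

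**Figure D2:**
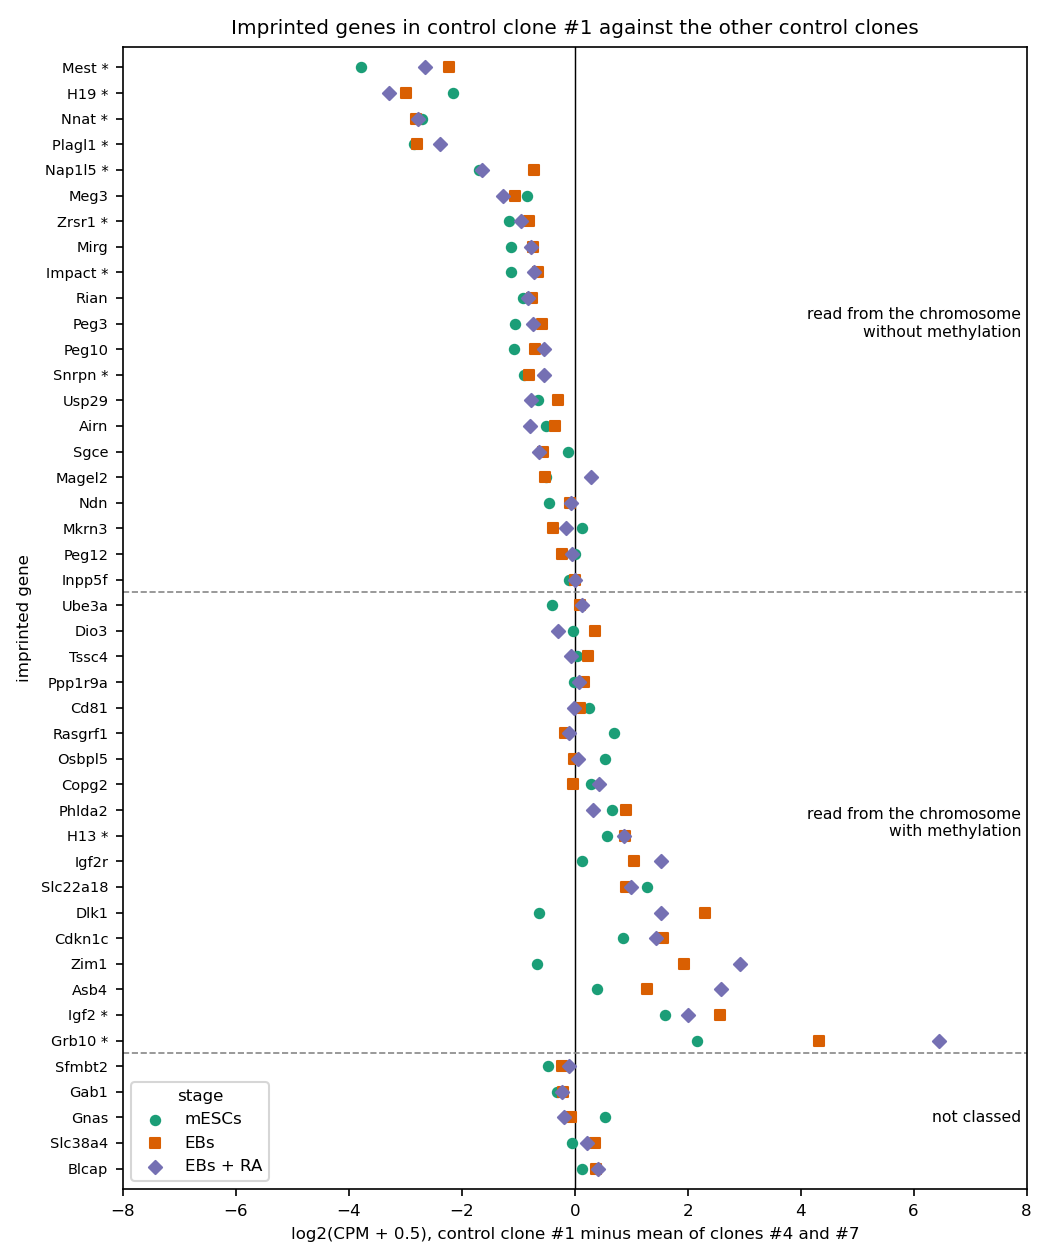
Difference of control clone #1 from the mean of control clones #4 and #7 on the log2(CPM + 0.5) scale for each of the 44 members, with 1 point per stage, grouped by the copy of the chromosome they are known to be read from. A star marks the 11 members with a clone effect among the control clones. Members read from the unmethylated copy lie mostly left of 0, with medians of -0.91, -0.70 and -0.77, and those read from the methylated copy mostly right of it, with medians of 0.34, 0.90 and 0.65.

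Genes beside the clusters did not share this shift. The median difference of genes within 5 Mb of each of the 21 clusters from the control mean lay between -0.13 and 0.09 on the log2 scale in control clone #1 over all stages. None of 22 regulators of imprints, among them Zfp57, Trim28 and Dnmt1, was called by the same edgeR test, which called 0.2% of all genes. In that test 1 of them had an unadjusted p under 0.05. At a share of 0.2%, no call among 22 genes does not show that the regulators were alike in the control clones. Summed levels of 11 markers of extraembryonic and visceral endoderm were 839.5, 545 and 1159 CPM in control EBs and 360.4, 252 and 831 CPM in control EBs + RA, so that clone #1 lay between the other control clones. Afp, Ttr and Fgb, which are expressed in visceral endoderm, were among the 23 genes with a control clone effect that were on neither list of imprinted genes. Their part in the clone effect of the members was not tested. With only the 9 control libraries in the fit, 11 of 43 members were called where 0.133% of all genes were, and 8 of the members were called in both fits. Without the mESC libraries 17 members were called, where 0.721% of all genes were. That fit holds only EBs and EBs + RA, which came from the same culture of each clone. Without EBs 4 members were called and without EBs + RA 3. No share of all genes is given for these counts, so they do not set the members against other genes. RNA was measured in whole cultures, where a smaller number of expressing cells and a lower level in each cell cannot be told apart.

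The promoters of several of these genes are part of, or next to, their control regions. Of the 11 members, 9 had entries in a table of RefSeq promoters of build GRCm38.p6, each entry being the 300 bases from 250 before to 50 after a transcript start. H19 and Impact are named only. TGCCGC, searched on both strands, was in at least 1 window of 7 of these 9 genes, or 77.8%, in 11 of the 39 members with an entry, or 28.2%, and in 13.1% of 27018 genes with an entry. By window, it was in 8 of 18 windows of the 9 genes, or 44.4%, and in 11.6% of all 32841 windows. Genes with several starts have several chances to hold the letters. The hexamer also contains a CpG. The median number of CpGs per window was 12 in the 9 genes, 15 in all members with an entry and 7 over all windows. The windows of the 6 genes below that lie lower or higher in clone #1 are shown in the direction of transcription with TGCCGC and its reverse complement GCGGCA in capitals. Mest and Nap1l5 hold the hexamer at 2 places, and Nnat, Plagl1, Snrpn and Grb10 at 1. Igf2, the other gene with a match, holds it at 1 place and is not shown. Windows of Mest, Snrpn and Grb10 that lack the hexamer are not shown either. A match describes the letters and does not show that a protein binds there.
Mest, chr6:30737800-30738099, plus strand: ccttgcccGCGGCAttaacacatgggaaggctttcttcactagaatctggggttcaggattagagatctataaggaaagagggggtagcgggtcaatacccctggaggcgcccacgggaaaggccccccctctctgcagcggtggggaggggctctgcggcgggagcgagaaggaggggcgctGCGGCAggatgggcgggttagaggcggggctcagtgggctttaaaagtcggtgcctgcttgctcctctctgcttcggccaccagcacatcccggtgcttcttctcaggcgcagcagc
Nap1l5, chr6:58907077-58907376, minus strand: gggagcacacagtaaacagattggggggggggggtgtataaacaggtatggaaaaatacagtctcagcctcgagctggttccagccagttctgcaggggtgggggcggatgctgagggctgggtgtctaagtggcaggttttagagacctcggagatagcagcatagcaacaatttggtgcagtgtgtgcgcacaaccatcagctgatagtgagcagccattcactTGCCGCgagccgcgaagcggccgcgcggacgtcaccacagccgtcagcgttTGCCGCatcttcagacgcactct
Nnat, chr2:157559828-157560127, plus strand: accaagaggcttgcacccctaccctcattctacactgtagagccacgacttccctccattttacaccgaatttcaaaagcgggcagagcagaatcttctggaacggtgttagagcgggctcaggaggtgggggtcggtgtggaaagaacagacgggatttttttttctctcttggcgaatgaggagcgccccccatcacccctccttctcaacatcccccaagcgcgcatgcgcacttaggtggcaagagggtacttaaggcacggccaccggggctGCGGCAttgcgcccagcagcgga
Plagl1, chr10:13090582-13090881, plus strand: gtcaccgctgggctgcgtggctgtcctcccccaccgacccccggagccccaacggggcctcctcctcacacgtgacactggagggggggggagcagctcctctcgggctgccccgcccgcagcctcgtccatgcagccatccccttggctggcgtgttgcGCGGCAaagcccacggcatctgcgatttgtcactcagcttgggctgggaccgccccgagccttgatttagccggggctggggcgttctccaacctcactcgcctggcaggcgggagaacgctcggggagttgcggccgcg
Snrpn, chr7:60005150-60005449, minus strand: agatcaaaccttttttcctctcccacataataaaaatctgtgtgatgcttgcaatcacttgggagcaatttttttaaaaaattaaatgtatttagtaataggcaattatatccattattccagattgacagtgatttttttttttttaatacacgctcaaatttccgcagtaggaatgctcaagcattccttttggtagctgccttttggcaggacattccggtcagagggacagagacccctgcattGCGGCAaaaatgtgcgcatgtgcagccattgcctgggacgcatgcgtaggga
Grb10, chr11:12037371-12037670, minus strand: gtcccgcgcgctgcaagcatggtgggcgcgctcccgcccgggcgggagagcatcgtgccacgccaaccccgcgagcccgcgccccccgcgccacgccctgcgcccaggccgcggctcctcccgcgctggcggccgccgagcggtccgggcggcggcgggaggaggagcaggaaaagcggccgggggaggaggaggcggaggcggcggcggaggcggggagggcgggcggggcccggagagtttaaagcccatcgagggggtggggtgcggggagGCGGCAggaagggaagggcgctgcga

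The clones of the mutants also differed among themselves at imprinted genes. Igf2 was the only member with a clone effect in the Neil1 clones, where 1.26% of all genes had one. It was at 26.8, 29 and 7.06 CPM in Neil1 mESCs, 118, 129 and 14.2 CPM in EBs and 1775, 1797 and 276 CPM in EBs + RA, with clone #11 the lowest each time (adjusted p = 6.29e-04). In the Neil2 clones 4 members had a clone effect (Igf2, Snrpn, Rian and Nnat), where 0.496% of all genes did. Igf2 was at 61.2, 35 and 181 CPM in Neil2 EBs and at 1021, 577 and 2548 CPM in Neil2 EBs + RA, with clone #14 the highest (adjusted p = 0.00501). Rian, a maternally expressed non-coding RNA of the Dlk1-Meg3 cluster that hosts small nucleolar RNAs, was at 738, 163 and 197 CPM in Neil2 EBs + RA, with clone #1 above the others (adjusted p = 0.0754). The count in the Neil2 clones rested on the stages used, with 17 members without the mESC libraries, where 13.3% of all genes were called. It was 1 without EBs and 0 without EBs + RA, for which no share of all genes is given. Whether the genotypes differ in such counts was not tested. Tested over all 3 genotypes at once, 14 members had a clone effect, where 1.28% of all genes did. These were the 11 of the control clones with Rian, Peg3 and Asb4.

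Each mutant clone was also compared with its mates at the 11 members, counting those where it lay beyond both mates on the side taken by control clone #1. Neil2 clone #14 did so for 7 members in mESCs, 9 in EBs and 8 in EBs + RA, and for 5 at all 3 stages (H19, Igf2, Mest, Nnat and Plagl1). At the shares of all genes tested for which this clone was the lowest or the highest of the 3, the same 8 low and 3 high sides would give 3.27, 2.56 and 2.88 members. For the other mutant clones such numbers were 2.86 to 4.65. Neil1 clone #7 did so for 7, 3 and 2 members and Neil1 clone #9 for 4, 7 and 5. The count was 0, 1 and 4 for Neil1 clone #11, 3, 2 and 3 for Neil2 clone #1 and 1, 0 and 0 for Neil2 clone #11. For example, H19 in Neil2 EBs was at 2446, 1385 and 846 CPM, and Mest in Neil2 mESCs was at 42.8, 42 and 19.9 CPM, with clone #14 lowest for both. Grb10 in mESCs was at 88.3, 37.3 and 59.1 CPM in the Neil1 clones and at 112, 47.1 and 131 CPM in the Neil2 clones, where Neil1 clone #9 was just under the lowest control clone and all others were within the range of the controls. Since a control clone stands apart, the number of members called without control clone #1 is given below with each comparison, and the log2 fold change without it where a member's call was lost. A call can be lost because fewer libraries are tested, also where the log2 fold change stays as large. The share of all genes called changes with the fit and the limit as well. Where that share is not given, a count from another fit or limit does not set the members against other genes.

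Levels of the members spanned a wide range. Per kb of exon, H19 was the highest member in control EBs at 1363 ± 1128 CPM per kb (SD, n = 3 clones). Next came Peg10, a retrotransposon-derived gene needed in the placenta, at 592 ± 170.0 CPM per kb, and Slc38a4, an amino acid transporter, at 162 ± 31.2 CPM per kb. Igf2 followed at 151 ± 163 and Snrpn at 113 ± 35.4 CPM per kb. Rasgrf1, a paternally expressed activator of Ras known from the brain, was lowest at 0.058 ± 0.0108 CPM per kb. In this order, neighbouring members differed by more than the larger of their SDs at 5 places only, after Peg10, Impact, Ube3a, Sfmbt2 and Nap1l5. The wide SDs of H19 and Igf2 come with the gap between control clone #1 and the others.

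Imprinted genes rose as control mESCs formed EBs. Of 43 members tested, 16 were higher and 1 was lower in EBs, where 18.5% of all genes were higher and 20.2% were lower. The rise included Igf2 and H19, Peg3, Peg10 and Asb4, Ndn, Magel2 and Peg12 of the Snrpn cluster and Meg3, Rian and Mirg of the Dlk1-Meg3 cluster. Genes were called differentially expressed (DE) by edgeR's quasi-likelihood test where the Benjamini-Hochberg adjusted p was below 0.1 and the log2 fold change was above 0.5 in size. With the clone as a block, since the same clones were used at both stages, 23 members were called, and without control clone #1 21 were.

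Igf2 went from 31.5, 6.08 and 16.5 CPM in control mESCs to 1864, 330.2 and 295 CPM in EBs, a log2 fold change of 5.48 ± 0.97 (± SE, as for all log2 fold changes; adjusted p = 0.00396), and every EB value lay above every mESC value. Asb4, a maternally expressed subunit of a ubiquitin ligase in the Peg10 cluster, went from 0.767, 0.45 and 0.475 to 32.7, 12.2 and 14.2 CPM (5.08 ± 0.46, adjusted p = 5.24e-05). Peg3, a paternally expressed zinc finger protein linked to growth and maternal behaviour, went from 42.7, 91.3 and 87.7 to 731, 1172 and 1013 CPM (3.68 ± 0.31, adjusted p = 3.67e-05). Peg10 went from 395, 728 and 962 to 2776, 5037 and 4018 CPM (2.47 ± 0.33, adjusted p = 4.63e-04). In none of these did the groups overlap. H19 rose by 4.36 ± 0.95 and Airn, the non-coding RNA that silences the paternal copy of Igf2r, by 5.04 ± 0.62 from levels of 0.0365 to 0.375 CPM. In the Snrpn cluster Ndn, a growth-restraining factor of neurons, rose by 1.97 ± 0.28, its neighbour Magel2 by 1.72 ± 0.26 and Peg12, which binds GSK3, by 1.29 ± 0.33. In Dlk1-Meg3 the non-coding RNAs rose by less, Rian by 0.93 ± 0.28 and Meg3 by 0.75 ± 0.33. Gab1, an adaptor of growth factor receptors, was the member that fell (-0.55 ± 0.20), and it was not called without any 1 of the control clones (-0.56 without clone #1).

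RA changed the members further. In control EBs + RA against control EBs, 16 of 43 members were higher and 4 were lower, where 23.3% of all genes were higher and 20.7% were lower. With the clone as a block 29 members were called, and without control clone #1 26, with Blcap lost (0.51 and, without it, 0.49). Plagl1 had the largest log2 fold change, 3.55 ± 1.06 (adjusted p = 0.0341), from 6.72, 47.6 and 51.6 to 97.6, 777 and 339.5 CPM. Dlk1, a paternally expressed ligand-like membrane protein that restrains differentiation, went from 41, 9.79 and 6.29 to 205, 72.8 and 69.1 CPM (2.62 ± 0.84, adjusted p = 0.0443). Clone #1 was the highest control in EBs and in EBs + RA. Nnat rose by 2.62 ± 1.03, Peg12 by 2.46 ± 0.38 and Ndn by 1.85 ± 0.32. Cdkn1c, the maternally expressed inhibitor of cyclin-dependent kinases, rose by 1.99 ± 0.61 from 92.8, 29.5 and 33 to 339, 86.1 and 180.3 CPM, with overlapping groups. Snrpn was lower with RA (-1.31 ± 0.28), going from 165, 319 and 259.7 to 73.9, 131 and 88.5 CPM, and Usp29, Magel2 and Gab1 were the other members that fell.

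In mESCs few imprinted genes were called between mutants and controls. In Neil1 mESCs 1 of 42 members was higher and 0 were lower, where 1.03% of all genes were higher and 0.784% lower. In Neil2 mESCs 1 of 42 was higher and 0 were lower, where 1.4% of all genes were higher and 0.429% lower. In Apex1 mESCs 0 of 44 were called in either direction, where 1.17% of all genes were higher and 0.806% lower. At an unadjusted p under 0.05, edgeR's test held 8 members in Neil1, 9 in Neil2 and 1 in Apex1 mESCs, and DESeq2 called 4, 7 and 1. The Apex1 duplicates were summed to 1 library, and its test assumed that this lone clone varies like the others. The member called in both Neil mutants was Peg12, at 2.05, 2.4 and 1.74 CPM in controls, 4.82, 4.29 and 5.64 CPM in Neil1 and 4.36, 5.16 and 4.69 CPM in Neil2 clones. The difference on the log2 scale was 1.24 ± 0.26 in Neil1 (adjusted p = 0.09) and 1.17 ± 0.23 in Neil2 (adjusted p = 0.0751), with no overlap of the groups. Peg12 was not called in either mutant without control clone #1 (1.23 and 1.16). Phlda2 was at 31.6, 20.1 and 8.73 CPM in Neil1 and 38.7, 24.5 and 31.7 CPM in Neil2 mESCs, all below the lowest of the control values of 87, 70.5 and 42.8 CPM, and was not called (adjusted p = 0.199 and 0.104). Both mutants were compared with the same control clones here and below, so their results are not independent.

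In EBs, the imprinted genes that differed from the controls were almost all lower in the mutants. In Neil1 EBs 13 of 43 members were lower and 1 was higher, where 13.1% of all genes were lower and 10.4% higher. In Neil2 EBs 13 of 43 were lower and 0 were higher, where 7.69% of all genes were lower and 8.65% higher. In Apex1 EBs 9 of 43 were lower and 0 were higher, where 4.77% of all genes were lower and 4.12% higher. Called lower in each of the Neil mutants, which were set against the same controls, were Asb4, Dlk1, H13, Ndn, Nnat, Osbpl5, Peg10, Peg3, Phlda2 and Slc38a4. Without control clone #1, 17 members were called in Neil1, 12 in Neil2 and 10 in Apex1 EBs.

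Among the members called in Neil1 and Neil2 EBs, Asb4 in the Peg10 cluster had the largest log2 fold change. Asb4 was at 32.7, 12.2 and 14.2 CPM in control EBs, 1.35, 1.59 and 0.608 CPM in Neil1, 1.33, 1.07 and 1.23 CPM in Neil2 and 3.71 and 4.99 CPM in the Apex1 libraries. All mutant values lay below all control values. The log2 fold change was -4.08 ± 0.50 in Neil1 (adjusted p = 8.84e-04), -4.01 ± 0.41 in Neil2 (adjusted p = 8.18e-04) and -2.15 ± 0.58 in Apex1 (adjusted p = 0.0571), and the last was not called without control clone #1 (-1.58). Peg10 was at 2776, 5037 and 4018 CPM in the controls and at 1223, 1184 and 1385, at 1105, 950.4 and 1031 and at 759 and 751 CPM in Neil1, Neil2 and Apex1. Its log2 fold changes were -1.65 ± 0.21, -1.94 ± 0.21 and -2.37 ± 0.30 in that order, with adjusted p of 8.27e-04, 0.00113 and 0.00315. Sgce, a sarcoglycan that shares the promoter region of Peg10, was lower in Neil1 (-0.99 ± 0.18) and Apex1 (-1.43 ± 0.40) EBs. It stood at 36.1, 15.8 and 22.6 CPM in Neil2 EBs against 33.3, 50.9 and 47.5 CPM in the controls and was not called there. Ppp1r9a, which lies between Peg10 and Asb4, was not called in any of the EBs.

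Peg3 was at 731, 1172 and 1013 CPM in control EBs. It was at 241, 249 and 275 CPM in Neil1, at 351, 190.0 and 184 CPM in Neil2 and at 128 and 157 CPM in Apex1 EBs. All mutant libraries lay below the lowest control, clone #1. The log2 fold changes were -1.94 ± 0.17 (adjusted p = 6.04e-05), -2.01 ± 0.29 (adjusted p = 0.00339) and -2.75 ± 0.40 (adjusted p = 0.00466), and all stayed called without control clone #1. Slc38a4 was lower in all 3 mutants, at 760.0, 689 and 515 CPM in controls and 288 to 361 CPM in Neil2 clones, with log2 fold changes of -1.02 ± 0.12, -1.05 ± 0.17 and -1.0 ± 0.22. Usp29 and Zim1, the neighbours of Peg3, were not called in Neil1 or Neil2 EBs.

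**Figure D3:**
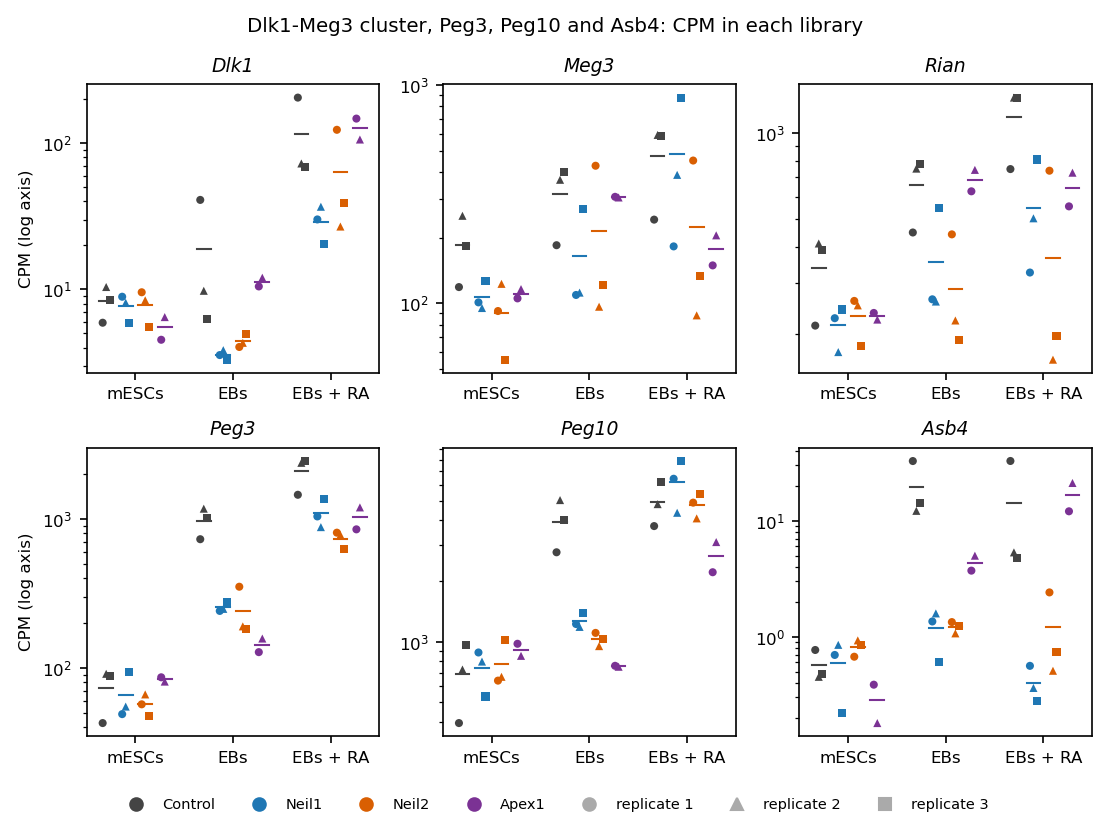
CPM of Dlk1, Meg3, Rian, Peg3, Peg10 and Asb4 on a logarithmic axis in each library, by stage and genotype. Each point is a clone or technical duplicate, with its shape giving the replicate number, and each line is the mean of a group. In EBs all mutant points of Peg3, Peg10 and Asb4 lie below all control points, from 0.608 CPM for Asb4 in Neil1 to 32.7 CPM in the controls.

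Nnat, Phlda2, Ndn and Dlk1 were lower in EBs of both Neil mutants. Nnat was at 6.12, 53.6 and 39.1 CPM in control, 3.35, 3.21 and 5.7 CPM in Neil1 and 3.97, 5.51 and 2.65 CPM in Neil2 EBs, with log2 fold changes of -3.01 ± 0.89 (adjusted p = 0.0618) and -3.02 ± 0.69 (adjusted p = 0.0234). Control clone #1, at 6.12 CPM, lay close to the mutants, and without it the log2 fold changes were -3.51 and -3.52. Phlda2, a maternally expressed brake on placental growth in the Kcnq1ot1 cluster, was at 105, 51.8 and 60.2 CPM in control, 16.5, 16.7 and 6.8 CPM in Neil1 and 12.8, 9.9 and 24.9 CPM in Neil2 EBs. Its log2 fold changes were -2.45 ± 0.44 (adjusted p = 0.0103) and -2.19 ± 0.37 (adjusted p = 0.00676). Ndn was lower in Neil1 (-1.0 ± 0.27) and Neil2 (-1.25 ± 0.29), without overlap of the groups. Dlk1 was lower in both as well, but with the high control clone #1 left out its log2 fold change went from -2.42 to -1.19 in Neil1 and, no longer called, from -2.10 to -0.87 in Neil2.

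For Igf2 the call rested on control clone #1. Igf2 was at 1864, 330.2 and 295 CPM in control EBs and at 61.2, 35 and 181 CPM in Neil2 EBs, a log2 fold change of -3.16 ± 0.83 (adjusted p = 0.0404). Without control clone #1 it was -1.78 and was not called (adjusted p = 0.126). H19 was at 1162, 1255 and 1315 CPM in Neil1, at 2446, 1385 and 846 CPM in Neil2 and at 276 and 219 CPM in Apex1 EBs, against 551, 5903 and 3247 CPM in the controls. Only Apex1 was called (-3.70 ± 1.11, adjusted p = 0.0885). Mest was lower in Neil2 (-2.40 ± 0.56, adjusted p = 0.025) and Apex1 (-3.25 ± 0.86, adjusted p = 0.0587) EBs. In Neil1 EBs it stood at 58.6, 53.4 and 98.2 CPM, with 1 clone above control clone #1, and was not called. Some other calls were lost without control clone #1. The log2 fold change of H13 went from -0.71 to -0.38 in Neil1 and from -0.72 to -0.38 in Neil2, and that of Nap1l5 in Neil1 from 1.5 to 1.03. That of Osbpl5 in Neil2 was as large without the clone (-0.85 and -0.86), as was that of Usp29 in Apex1 (-1.30 and -1.41).

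Markers of cell types moved with these differences. The summed level of 10 mesoderm and mesenchyme markers was 315.2 to 453 CPM in control EBs, 34.4 to 54.2 CPM in Neil1, 25.6 to 57.9 CPM in Neil2 and 52.1 to 65.7 CPM in Apex1 EBs. That of 7 pluripotency markers was 3176 to 3744 CPM in control EBs, 5069 to 6481 CPM in Neil1, 4664 to 6299 CPM in Neil2 and 6183 to 6310 CPM in Apex1 EBs. The 7 trophoblast markers summed to 57.6 to 95.3 CPM in control, 12.3 to 43.0 CPM in Neil1, 11.3 to 17.6 CPM in Neil2 and 18.6 to 18.99 CPM in Apex1 EBs. The 11 markers of extraembryonic and visceral endoderm overlapped between control (545 to 1159 CPM), Neil1 (841 to 1197 CPM) and Neil2 (305 to 1554 CPM), and were lower in Apex1 (161 to 179 CPM). The mutants' EBs thus held less mesoderm RNA and more pluripotency RNA. The part of this in the lower levels of imprinted genes was not tested.

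In EBs + RA members differed in both directions in the Neil mutants. In Neil1 EBs + RA 15 of 44 members were lower and 5 were higher, where 19.9% of all genes were lower and 21.2% higher. In Neil2 EBs + RA 11 of 43 were lower and 3 were higher, where 16.6% of all genes were lower and 18.3% higher. In Apex1 EBs + RA 3 of 44 were lower and 0 were higher, where 2.25% of all genes were lower and 4.97% higher. Cd81, Phlda2, Sfmbt2, Gab1 and Rasgrf1 were higher in Neil1, and Cd81, Phlda2 and Sfmbt2 in Neil2. In Neil1, where libraries of the same replicate number deviated together, 16 members were lower and 8 higher with the replicate number as a block. Airn, Dio3 and Zrsr1 were then called higher and Mirg and Mkrn3 lower, and Gnas was not called (adjusted p = 0.117). Without control clone #1, 17 members were called in Neil1, 15 in Neil2 and 3 in Apex1.

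Nnat was at 39, 333 and 220.3 CPM in control EBs + RA. It was at 15, 12 and 9.69 CPM in Neil1 and at 27, 20.3 and 12.7 CPM in Neil2 clones, all below the lowest control. The log2 fold changes were -4.03 ± 0.69 (adjusted p = 0.00423) and -3.30 ± 0.69 (adjusted p = 0.00856). Plagl1 was at 97.6, 777 and 339.5 CPM in controls, 56.5, 41.4 and 88.2 CPM in Neil1, 63, 75.2 and 35.5 CPM in Neil2 and 50.7 and 29.3 CPM in Apex1. Its log2 fold changes were -2.73 ± 0.67 (adjusted p = 0.0168), -2.81 ± 0.66 (adjusted p = 0.014) and -3.36 ± 1.00 (adjusted p = 0.0934), and all mutant libraries lay below control clone #1. Mest stood at 101, 626 and 657 CPM in controls against 56.3, 33.5 and 62.1 CPM in Neil1 and 57.5, 110.3 and 40.3 CPM in Neil2 (-3.20 ± 0.64 and -2.73 ± 0.66), where Neil2 clone #11 lay above control clone #1. For Nnat, Plagl1 and Mest, control clone #1 was the control nearest to the mutants, and the log2 fold changes in Neil1 without it were -4.53, -3.20 and -3.69.

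Members of the Snrpn cluster were lower with RA as well. Ndn was at 153, 213 and 119.6 CPM in control EBs + RA, at 53.4, 56.2 and 42.8 CPM in Neil1, at 55.2, 65.4 and 68.7 CPM in Neil2 and at 89.7 and 72.9 CPM in Apex1. The log2 fold changes were -1.69 ± 0.22 (adjusted p = 0.0012), -1.36 ± 0.21 (adjusted p = 0.00264) and -0.99 ± 0.30 (adjusted p = 0.0958). Peg12, which was higher in mutant mESCs, was lower here, at 5.25, 5.84 and 5.08 CPM in Neil1 and 5.07, 6.79 and 5.81 CPM in Neil2 against 25.6, 40.3 and 17.2 CPM in the controls (-2.38 ± 0.31 and -2.24 ± 0.31). In Apex1 it was at 10.5 and 8.36 CPM (-1.56 ± 0.43, adjusted p = 0.0719). Neither Ndn nor Peg12 was called in Apex1 without control clone #1, at log2 fold changes as large (-1.03 and -1.61). Snrpn itself was lower in Neil1 (-0.61 ± 0.21) and not called in Neil2, whose clones were at 79.1, 118 and 76.5 CPM against 73.9, 131 and 88.5 CPM. Without the replicate block Mkrn3 and Ube3a, the maternally expressed ubiquitin ligase of the cluster, were not called in any comparison of a mutant with the controls.

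Phlda2 turned around between the stages. From its lower level in mutant EBs it went to 106, 124 and 79 CPM in Neil1 and 67.2, 68 and 182 CPM in Neil2 EBs + RA, against 58.1, 37.6 and 57 CPM in the controls. All mutant clones lay above all controls, with log2 fold changes of 0.99 ± 0.22 (adjusted p = 0.0102) and 1.05 ± 0.38 (adjusted p = 0.0642), the latter not called without control clone #1 (1.16). The response to RA differed from that of the controls by 3.46 ± 0.49 in Neil1 (adjusted p = 7.69e-04) and 3.22 ± 0.59 in Neil2 (adjusted p = 0.0041). Sfmbt2, a paternally expressed Polycomb protein, was at 57.1, 44 and 85.3 CPM in control, 205, 133 and 239 CPM in Neil1 and 76.3, 129 and 163 CPM in Neil2 EBs + RA (1.61 ± 0.28 and 0.98 ± 0.30). In Neil2 the groups overlapped and the call was lost without control clone #1, at a log2 fold change of 0.92. Rasgrf1 was higher in Neil1 (3.34 ± 0.55, adjusted p = 0.0031), at 0.56, 0.794 and 0.52 CPM against 0.0322, 0.11 and 0.0329 CPM, levels that rest on few reads.

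**Figure D4:**
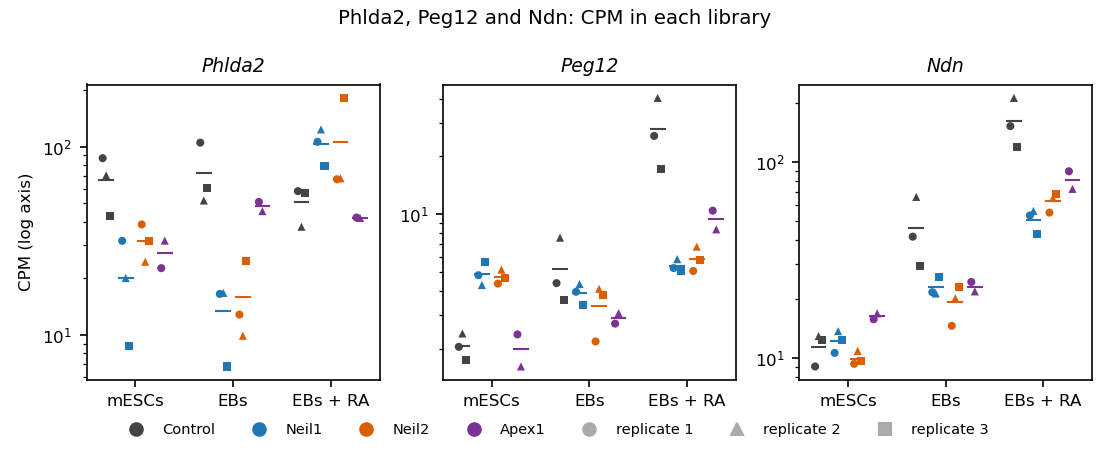
CPM of Phlda2, Peg12 and Ndn on a logarithmic axis in each library, by stage and genotype. Each point is a clone or technical duplicate and each line is the mean of a group. The Neil1 and Neil2 points of Phlda2 lie below the controls in EBs and above them in EBs + RA, and those of Peg12 lie above the controls in mESCs (4.29 to 5.64 CPM in Neil1) and below them in EBs + RA (5.08 to 5.84 CPM).

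Asb4 remained low with RA, at 0.56, 0.361 and 0.28 CPM in Neil1 and 2.41, 0.508 and 0.731 CPM in Neil2 against 32.8, 5.33 and 4.74 CPM in the controls (-5.15 ± 0.90 and -3.56 ± 0.91). Control clone #1 was the highest, and without it the log2 fold changes were -3.65 and -2.05. In Apex1 EBs + RA Asb4 was at 12.1 and 21.2 CPM, within the range of the controls. Peg10 differed between the stages. It was at 3743, 4810 and 6172 CPM in control, 6427, 4357 and 7872 CPM in Neil1 and 4892, 4087 and 5372 CPM in Neil2 EBs + RA, groups that overlapped, and was not called. Peg3 stayed lower, at 1039, 881 and 1360 CPM in Neil1 and 809, 782 and 624 CPM in Neil2 against 1452, 2379 and 2448 CPM (-0.96 ± 0.24 and -1.50 ± 0.21). Inpp5f, a phosphoinositide phosphatase, was lower in both mutants by a small amount (-0.54 ± 0.16 and -0.53 ± 0.14), and so was Ppp1r9a, a neuronal scaffold protein (-1.45 ± 0.20 and -0.92 ± 0.15). In Neil1 4 calls were lost without control clone #1. The log2 fold change went from -0.78 to -0.63 for Copg2, from 0.73 to 0.64 for Gab1, from -1.01 to -1.11 for Gnas and from -1.26 to -1.20 for Magel2.

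Markers of cell types differed with RA as well. The 7 neural markers summed to 312 to 509 CPM in control EBs + RA, 51.3 to 66.7 CPM in Neil1, 55.1 to 70.5 CPM in Neil2 and 89.7 to 97.4 CPM in Apex1. The same sum was 454 to 485 CPM in control mESCs and 143 to 155 CPM in control EBs. A high sum therefore does not mark neural cells alone. The 7 pluripotency markers summed to 155 to 241 CPM in control, 438 to 890.3 CPM in Neil1, 492 to 1634 CPM in Neil2 and 1531 to 2104 CPM in Apex1 EBs + RA. Sums of 10 mesoderm and mesenchyme markers were 284 to 404 CPM in control, 96.98 to 276 in Neil1 and 68.4 to 129 in Neil2. Those of 11 extraembryonic and visceral endoderm markers were 252 to 831, 954 to 1862 and 315 to 1000.02 CPM in that order. Those of 7 trophoblast markers were 23.01 to 29.4, 30.2 to 188 and 23.002 to 50.05 CPM. In Apex1 they were 230.03 to 304, 374 to 379 and 17.7 to 20.2 CPM for mesoderm, endoderm and trophoblast. Several members that were lower with RA, among them Nnat, Ndn and Ppp1r9a, are known from neural tissue. Phlda2, which was higher in the Neil mutants, acts on placental growth. The part of any of these cell types in the lower or higher levels of members was not tested.

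**Figure D5:**
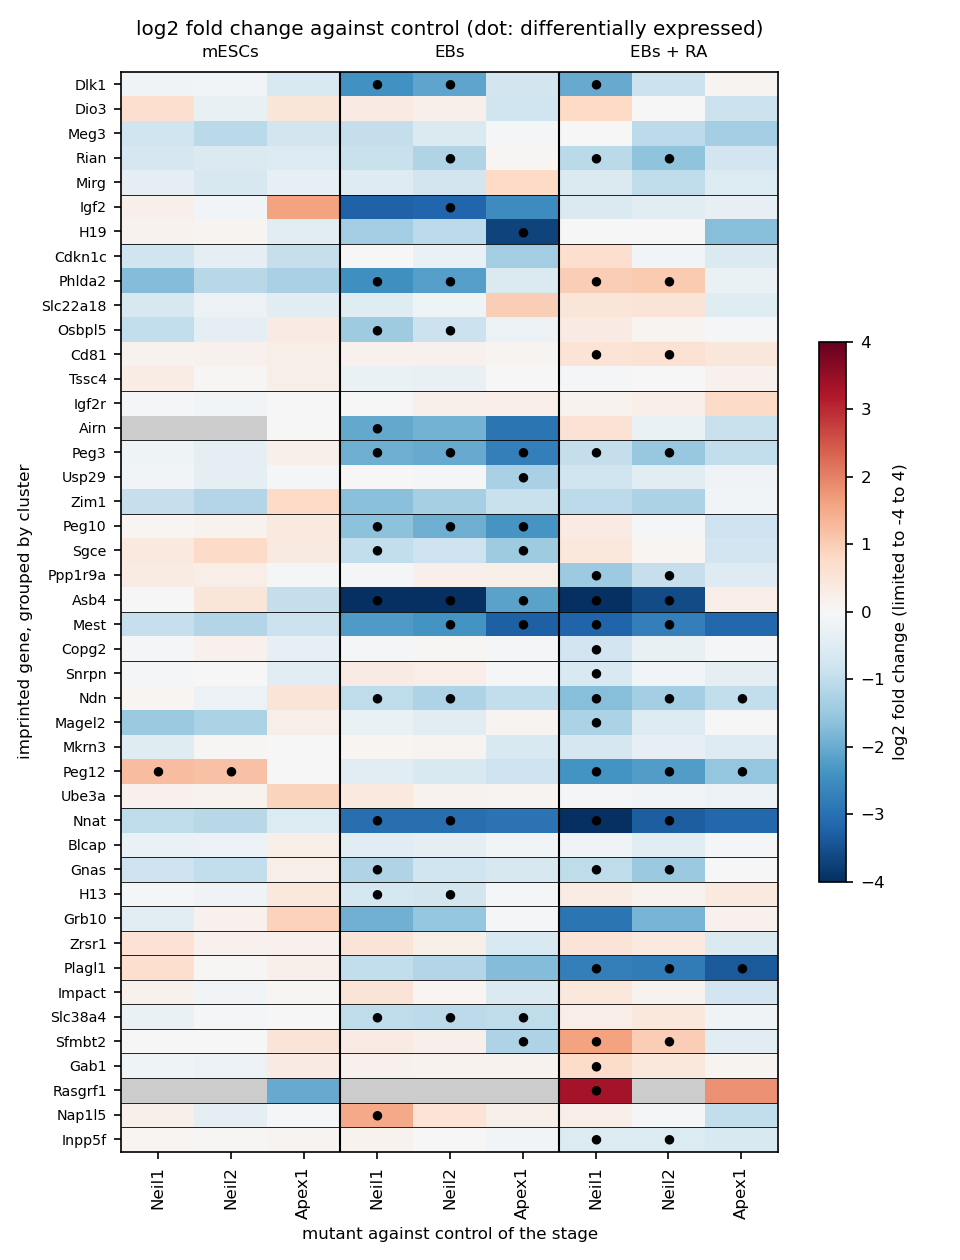
Log2 fold changes of the 44 members (rows, by cluster) in the 9 comparisons of a mutant with the controls (columns), with colours limited to values from -4 to 4, a dot for each member that was DE and grey where a member was not tested. Blue, for lower values in mutants, prevails in the EBs and EBs + RA columns, where 13 members were lower in Neil1 EBs and 15 in Neil1 EBs + RA, and the mESC columns hold a dot for Peg12 in Neil1 and Neil2 only.

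The Dlk1-Meg3 cluster lies on distal chromosome 12, with Dlk1 at chr12:110691033-110701546 in NCBIM37. Meg3, its maternally expressed non-coding RNA, was at 119, 252 and 184 CPM in control, 101, 95.2 and 126 CPM in Neil1 and 92.3, 123 and 55.2 CPM in Neil2 mESCs and was not called in any comparison of a mutant with the controls. In EBs + RA its clones ranged from 183 to 879 CPM in Neil1 and from 88.1 to 452 CPM in Neil2, against 242, 593 and 584 CPM in the controls. Rian was at 450.3, 751 and 780.1 CPM in control and 444, 223 and 190.4 CPM in Neil2 EBs (-1.21 ± 0.34, adjusted p = 0.049), and was lower in EBs + RA of Neil1 (-1.07 ± 0.34) and Neil2 (-1.62 ± 0.56). Dlk1 was lower in Neil1 EBs + RA (-2.02 ± 0.45) and not called in Neil2, whose clone #1 was at 124 CPM and the others at 26.9 and 39.2 CPM.

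None of the 5 members of Dlk1-Meg3 was called in Apex1 at any stage. In the Apex1 libraries the other genes within 5 Mb of the cluster stood apart, with medians of 0.50 and 0.45 above the control mean on the log2 scale in EBs, 0.44 and 0.38 in EBs + RA and 0.10 and 0.14 in mESCs. Over the 21 regions and 33 libraries, 0.50 was the largest median. Within 2 Mb it was also 0.50, and the largest in size was -0.59 for 9 genes near Peg10 in Neil1 clone #11 with RA. Chromosome 12 as a whole reached a median of 0.30 in an Apex1 library of EBs + RA, and the other chromosomes with members lay between -0.31 and 0.16 over all libraries. Near Dlk1-Meg3 all other clones lay between -0.17 and 0.17 within 5 Mb. In Apex1 EBs Rian was at 626 and 743 CPM against 450.3, 751 and 780.1 CPM in the controls and Dlk1 was at 10.5 and 12 against 41, 9.79 and 6.29 CPM. In Apex1 EBs and EBs + RA the region as a whole was higher. Its part in the levels of these members there cannot be told apart from that of the mutation. With 1 clone, neither can a difference of the clone.

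The difference between stages was also compared between genotypes by interaction terms, at an adjusted p below 0.1. The change from mESCs to EBs differed in Neil1 for 8 members, where it did for 10.4% of all genes, and in Neil2 for 6 members, where it did for 10.4%. All of these interactions were negative, with Asb4 the largest (-4.07 ± 0.75 in Neil1 and -4.52 ± 0.55 in Neil2). Peg3, Peg10, Peg12, Sgce and Slc38a4 were called in each mutant, set against the same controls. The same clones were used at both stages. With a term for each clone, added after the data were seen, 6 of these 8 members in Neil1 and all 6 in Neil2 were also called. The response to RA differed in Neil1 for 15 members, where it did for 32.2% of all genes, and in Neil2 for 7 members, where it did for 15.4%. With a term for each clone, chosen after the data were seen since EBs and EBs + RA of a clone came from the same culture, these counts were 27 (39.6% of all genes) and 18 (24.8%). Without control clone #1, 7 and 6 members were called for the step to EBs and 15 and 5 for RA. Of the members called with all clones, Ndn (-1.02), Slc38a4 (-0.63) and Tssc4 (-0.52) were then lost for the step to EBs in Neil1, Copg2 (-0.52) for RA in Neil1, and Inpp5f (-0.56), Osbpl5 (0.97) and Peg12 (-1.57) for RA in Neil2. Besides Phlda2, the response differed upwards at Peg10, by 2.00 ± 0.35 in Neil1 and 1.88 ± 0.30 in Neil2, at Slc38a4 (1.32 ± 0.28 and 1.45 ± 0.29) and at Osbpl5, an oxysterol-binding protein gene of the Kcnq1ot1 cluster (1.76 ± 0.24 and 0.94 ± 0.31). It differed downwards at Peg12 (-1.95 ± 0.45 and -1.63 ± 0.49), Ppp1r9a (-1.40 ± 0.22 and -1.13 ± 0.20) and Inpp5f.

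Over the 9 comparisons of a mutant with the controls, 30 of 44 members were DE at least once, where 52.6% of all genes were, and 14 never, counted without the replicate block. The 14 were Dio3, Meg3 and Mirg of Dlk1-Meg3, Cdkn1c, Slc22a18 and Tssc4 of Kcnq1ot1, Igf2r, Zim1, Mkrn3, Ube3a, Blcap, Grb10, Zrsr1 and Impact. Igf2r, the maternally expressed receptor that carries IGF2 to the lysosome, was at 217, 96.5 and 112 CPM in control, 158, 144 and 124 CPM in Neil1 and 186, 138 and 164 CPM in Neil2 EBs. Grb10 was at 70.6, 15.9 and 16.7 CPM in Neil1, 105, 18.5 and 88.6 CPM in Neil2 and 255 and 312 CPM in Apex1 EBs + RA, all between the lowest and highest control.

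Regulators of imprints were measured beside the members, both genes that set or keep the marks and others such as Tet1, Tet2 and Tet3. Of 22 such regulators, 5 were higher and 0 lower in Neil1 EBs (Dnmt3a, Dnmt3l, Dppa3, Tet1 and Tet2), and 4 were higher and 0 lower in Neil2 EBs (the same without Dppa3). Of all genes, 10.4% were higher and 13.1% lower in Neil1 EBs, and 8.65% higher and 7.69% lower in Neil2 EBs. Tet2, which oxidises methylated cytosine, had log2 fold changes of 0.84 ± 0.12 and 0.82 ± 0.21. In Apex1 EBs 2 were higher and 1 was lower, where 4.12% of all genes were higher and 4.77% lower. In EBs + RA 4 were higher and 7 lower in Neil1, 3 higher and 5 lower in Neil2, and 2 higher and 2 lower in Apex1. Of all genes in EBs + RA, 21.2% were higher and 19.9% lower in Neil1, and 18.3% and 16.6% in Neil2. In Apex1 EBs + RA these shares were 4.97% and 2.25%. Dnmt3l, a cofactor of the de novo DNA methyltransferases, was higher in all 3 mutants with RA (1.71 ± 0.28, 1.76 ± 0.26 and 1.94 ± 0.33). Of all genes in mESCs, 1.03% were higher and 0.784% lower in Neil1, 1.4% and 0.429% in Neil2, and 1.17% and 0.806% in Apex1. In mESCs 1 regulator was lower in Neil1 (Ctcfl) and 0 were called in Neil2 and in Apex1. In each of those, edgeR gave an unadjusted p under 0.05 for 4 of the 22, and DESeq2 called 1 in Neil2 and 2 in Apex1. In controls 3 of the 22 were higher and 8 lower in EBs than in mESCs, where 18.5% of all genes were higher and 20.2% lower. Among the regulators that were lower was Zfp57 (-1.44 ± 0.12). Zfp57 was at 553, 513 and 531 CPM in control mESCs and at 212, 181 and 211 CPM in control EBs.

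The second list, of 27 further imprinted genes with identifiers, gave 4 higher and 3 lower of 21 tested in Neil1 EBs, 1 higher and 3 lower of 21 in Neil2 EBs, and 1 higher and 0 lower of 25 in Apex1 EBs. In EBs + RA it gave 5 higher and 8 lower of 24 in Neil1, 6 higher and 6 lower of 25 in Neil2, and 1 higher and 0 lower of 25 in Apex1. Cobl, an actin nucleator next to Grb10, was higher in all 3 mutants in EBs (0.89 ± 0.10, 0.86 ± 0.19 and 0.95 ± 0.23). In mESCs 1 was higher and 1 lower of 18 in Neil1, 0 were called of 19 in Neil2 and 0 of 22 in Apex1. For each of these comparisons the shares of all genes are those given above with the regulators.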

How the data were processed

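RNA-seq libraries of polyadenylated RNA were made by the authors from mESCs, EBs and EBs + RA of 10 clones with TruSeq RNA v2 kits and sequenced for 51 cycles. The submitters' processing notes name TopHat2 2.0.9 with Bowtie2 2.1.0, HTSeq 0.5.4, DESeq2 1.6.3 and the build NCBIM37 (mm9). The strand setting of HTSeq was not given in the sources used here. The deposited values are raw counts per Ensembl gene, without normalization. HTSeq's rows that name no gene (21.8% to 30.4% of reads) were left out.

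Counts were analysed with edgeR 4.0.16 in R 4.3.3: filterByExpr, TMM scaling, and robust quasi-likelihood tests with Benjamini-Hochberg adjustment over all genes tested. Each Neil mutant was fitted with the controls of its stage, and Apex1, its technical duplicates summed, in a fit of all genotypes. Genes were called DE where the adjusted p was below 0.1 and the log2 fold change exceeded 0.5 in size. Interactions and clone effects used the adjusted p alone. CPM use TMM factors over all 33 libraries. Precision is that of 3 clones a group, and an exact permutation test of 3 against 3 cannot go below p = 0.1. Gene positions are those of the NCBIM37 annotation, promoters those of RefSeq on GRCm38.p6.

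Members and lists were chosen with earlier results of these data known. Members with values in every library were chosen by rule: the 3 largest non-overlapping changes of each comparison, the 5 smallest adjusted p of the clone effect, the highest level per length in each cluster, and Meg3, Dlk1, H19 and Igf2. Members shown beyond these, the tests within each genotype's clones, the fits with a term for each clone and the sorting by parental copy were added after values were seen.

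Chi-square per degree of freedom was 8.97 to 126.6 between clones of a group and 5.58 to 25.6 between Apex1 duplicates, so no library was a copy. Mutant and control libraries of the same replicate number deviated with correlations of -0.45 to 0.59, and the number was not taken to pair them, except in Neil1 EBs + RA, where all 3 pairs lay above 0.1 (0.235 to 0.301). Clones pair across stages by design (-0.49 to 0.49). On simulated counts with genes changed 4-fold, 96.9% were recovered and 7.8% of calls were false for 3 against 3 clones (15281 genes), 86.0% and 10.4% for 1 against 3 (15474 genes), 86.4% and 13.6% for an interaction (15449 genes), and 94.5% and 11.3% for the clone effect (15479 genes). Alternatives were DESeq2 1.42.0, RLE size factors, no filter, all genotypes in 1 fit, each clone left out, the replicate block, separate Apex1 duplicates, and each stage left out of the clone effect.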

Additional observations from a re-analysis of the deposited data

Results flagged for a closer look

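These members changed from one stage to the next by a different amount in a mutant than in the controls, by an interaction term of edgeR's quasi-likelihood test at an adjusted p below 0.1. Values are differences of log2 fold changes, mutant minus control, ± SE. Neil1 and Neil2 were compared with the same control clones, and no explanation was tested. Of all genes, 10.4% had such an interaction for the step to EBs in each mutant. For RA the shares were 32.2% in Neil1, beside 15 of 44 members, and 15.4% in Neil2, beside 7 of 43. The lists are not a trait of the members alone.

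From mESCs to EBs, the change in Neil1 differed for Asb4 (-4.07 ± 0.75), Peg3 (-1.74 ± 0.43), Peg10 (-1.71 ± 0.44), Peg12 (-1.63 ± 0.40), Sgce (-1.38 ± 0.33), Ndn (-1.07 ± 0.34), Slc38a4 (-0.73 ± 0.18) and Tssc4 (-0.55 ± 0.18), with adjusted p from 0.00628 to 0.0918. Over the same step in Neil2 it differed for Asb4 (-4.52 ± 0.55), Peg10 (-2.09 ± 0.41), Peg12 (-1.81 ± 0.45), Peg3 (-1.63 ± 0.43), Sgce (-1.60 ± 0.41) and Slc38a4 (-0.98 ± 0.21), with adjusted p from 0.000495 to 0.0392. All of these were more negative in the mutants. With a term for each clone, 6 of the 8 members in Neil1 and all 6 in Neil2 were also called.

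In the response to RA, Neil1 differed for Peg12 (-1.95 ± 0.45), Ppp1r9a (-1.40 ± 0.22), Snrpn (-0.92 ± 0.36), Copg2 (-0.69 ± 0.27), Inpp5f (-0.65 ± 0.18), Peg3 (1.00 ± 0.31), H13 (1.04 ± 0.41), Sfmbt2 (1.32 ± 0.37), Slc38a4 (1.32 ± 0.28), Sgce (1.44 ± 0.35), Osbpl5 (1.76 ± 0.24), Peg10 (2.00 ± 0.35), Airn (2.66 ± 0.51), Phlda2 (3.46 ± 0.49) and Rasgrf1 (4.41 ± 0.72), with adjusted p from 0.000332 to 0.0852. The response to RA in Neil2 differed for Peg12 (-1.63 ± 0.49), Ppp1r9a (-1.13 ± 0.20), Inpp5f (-0.57 ± 0.19), Osbpl5 (0.94 ± 0.31), Slc38a4 (1.45 ± 0.29), Peg10 (1.88 ± 0.30) and Phlda2 (3.22 ± 0.59), with adjusted p from 0.00169 to 0.0724. Rasgrf1 was under 1 CPM in every library.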

How the results depend on the processing

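Of 1136 alternative values of 115 single-gene results, 946 kept direction and side of the threshold, 190 kept only the direction, 140 of them among 587 fits without 1 clone, and 0 reversed. With the replicate block, which by the check pairs mutants with controls only in Neil1 EBs + RA, the members called were 18 in Neil1 EBs, 24 in Neil1 EBs + RA, 0 in Neil1 mESCs, 7 in Neil2 EBs, 15 in Neil2 EBs + RA, 5 in Neil2 mESCs, and 7, 8, 19 and 9 for the interactions of EBs with Neil1 and Neil2 and of RA with Neil1 and Neil2. The block is the clone in the comparisons between stages of the controls, with 23 (EBs) and 29 (RA). A term for each clone gave 27 and 18 for the RA interactions of Neil1 and Neil2.

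DESeq2 gave 4, 7 and 1 members in Neil1, Neil2 and Apex1 mESCs, 6 in Apex1 EBs + RA, 13 for the interaction of EBs with Neil1 and, by its likelihood ratio test, 24 for the clone effect. Without a filter there were 2 in Neil1 mESCs, 3 in Neil2 mESCs, 8 in Neil2 EBs and 9 in Neil2 EBs + RA. All genotypes in 1 fit gave 3 in Neil1 mESCs. Apex1 duplicates as separate libraries, which take technical for biological spread, gave 4 in mESCs and 15 in EBs + RA. The clone effect fell to 4 members without EBs and 2 without EBs + RA and rose to 27 without mESCs, which stands at 4, 3 and 17 for control clones, 0 without EBs + RA and 4 without mESCs for Neil1, and 1, 0 and 17 for Neil2.

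Leaving out 1 clone gave 6 to 10 members in Apex1 EBs, 0 to 4 in Apex1 EBs + RA, 0 to 2 in Apex1 mESCs, 9 to 17 in Neil1 EBs, 14 to 24 in Neil1 EBs + RA, 0 to 4 in Neil1 mESCs, 7 to 13 in Neil2 EBs, 11 to 19 in Neil2 EBs + RA and 0 to 5 in Neil2 mESCs. In controls it gave 11 to 21 for EBs and 12 to 26 for RA, and for the interactions 4 to 8 (EBs, Neil1), 2 to 7 (EBs, Neil2), 11 to 15 (RA, Neil1) and 4 to 10 (RA, Neil2). The lowest counts came without control clone #4 for Apex1 EBs and EBs + RA, control EBs, Neil1 EBs + RA and the interactions of Neil1 with RA and with EBs, without control clone #7 for RA in controls, without Neil1 clone #7 for Neil1 EBs and without Neil2 clone #14 for Neil2 EBs and EBs + RA. The causes were not tested. The share of all genes called also changes with the fit, so these counts do not compare the members with other genes. The limits are 3 clones a group, 1 for Apex1, and the few reads behind members under 1 CPM.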
